A study of Homo sapiens with 18 samples.

Results

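Transforming growth factor beta (TGF-beta) signalling was described in these data through 10 genes: the ligands TGFB1 and TGFB2, the receptors TGFBR1, TGFBR2 and TGFBR3, the signal transducers SMAD2, SMAD3 and SMAD4, the feedback inhibitor SMAD7 and the target TGFBI. They were chosen by symbol, with earlier results of these data known. Each symbol matched 1 row of a table of 58815 genes, and all 10 were among the 12103 genes that passed the expression filter. In this pathway the secreted ligand is released from a latent complex and binds the type II receptor, which phosphorylates the type I receptor. The type I receptor phosphorylates SMAD2 and SMAD3, which join SMAD4, enter the nucleus and bind the regulatory regions of target genes. In carcinoma the pathway is known to restrain growth early and to promote invasion and metastasis later, and in bone it takes part in the exchange between tumour cells and the matrix they resorb.

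RNA was measured in LM2, BrM3 and BoM, which are variants of the triple-negative breast cancer line MDA-MB-231 with metastatic activity in lung, brain and bone. Each line carried either a control hairpin (shCtrl) or a hairpin against WDR5 (shWDR5), a scaffold protein of chromatin complexes that methylate histone H3, and each of the 6 groups had 3 libraries. Both hairpins were driven from a doxycycline-inducible lentiviral vector, and all 18 libraries came from cells kept for 3 days in 1 μg/mL doxycycline and in serum-containing medium, so no library here lacks the drug. The 3 libraries of a group were harvested at different passages of 1 derivative of the line, so that the p-values measure the spread between passages. Only 1 hairpin against WDR5 was sequenced, and a label field names the brain variant BrM2 where the study's methods name BrM3. The title and the cell line field name the same variant for all 18 samples, but the source field names another tissue variant in 12 of the 18, and the groups here follow the titles.

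The libraries held 17485841 to 119667013 counts in genes, with a median of 37861544. WDR5 itself fell in every line, from 112 to 133 CPM (counts scaled to a common library size) in LM2 shCtrl, 79.1 to 92.9 CPM in BrM3 shCtrl and 87.1 to 90.1 CPM in BoM shCtrl to between 13.9 and 24.3 CPM in all 9 shWDR5 libraries. The cultures were measured in bulk, so that fewer cells with a transcript and less of it per cell cannot be told apart. The 6 markers of mesenchymal-like breast cancer cells (VIM, CD44, AXL, CAV1, MSN and FOSL1) lay at 232 CPM or higher in every library. Of 7 luminal or epithelial markers, ESR1, PGR, FOXA1 and CDH1 stayed under 1 CPM, EPCAM and GATA3 lay between 4.37 and 10.1 CPM, and ERBB2 lay between 41.3 and 83.0 CPM. The summed level of 7 markers of leukocytes, endothelium and fibroblasts, led by PDGFRB and PECAM1, was 12.2 to 15.5 CPM in BoM shCtrl, 6.81 to 8.78 CPM in LM2 shCtrl and 4.07 to 4.53 CPM in BrM3 shCtrl. With shWDR5 it was lower without overlap in BoM (8.68 to 11.1 CPM) and BrM3 (2.78 to 3.94 CPM), while in LM2 (6.53 to 9.08 CPM) it overlapped shCtrl. CD68, CDH5 and DCN were at 0 in 1, 2 and 6 libraries, and the part of these markers in the differences below was not tested.

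Scaled by transcript length, the type II receptor was the most abundant message of the group and the inhibitor SMAD7 the least. Over the 18 libraries TGFBR2 averaged 65.9 CPM per kilobase of its canonical transcript, above 90.7% of the genes tested. The target TGFBI followed with 37.4 CPM per kilobase, but its group means ran from 3.04 to 110 CPM per kilobase. SMAD3 had 28.1 CPM per kilobase, while TGFBR1, TGFB1, TGFB2 and TGFBR3 lay between 7.33 and 14.6. SMAD4, SMAD2 and SMAD7 had 3.22, 1.98 and 1.64 CPM per kilobase. The canonical SMAD2 transcript spans 34.6 kilobases, so that its level per kilobase is low if the cells use shorter forms. All further levels are CPM without the length term and are compared only within a gene.

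**Figure D1:**
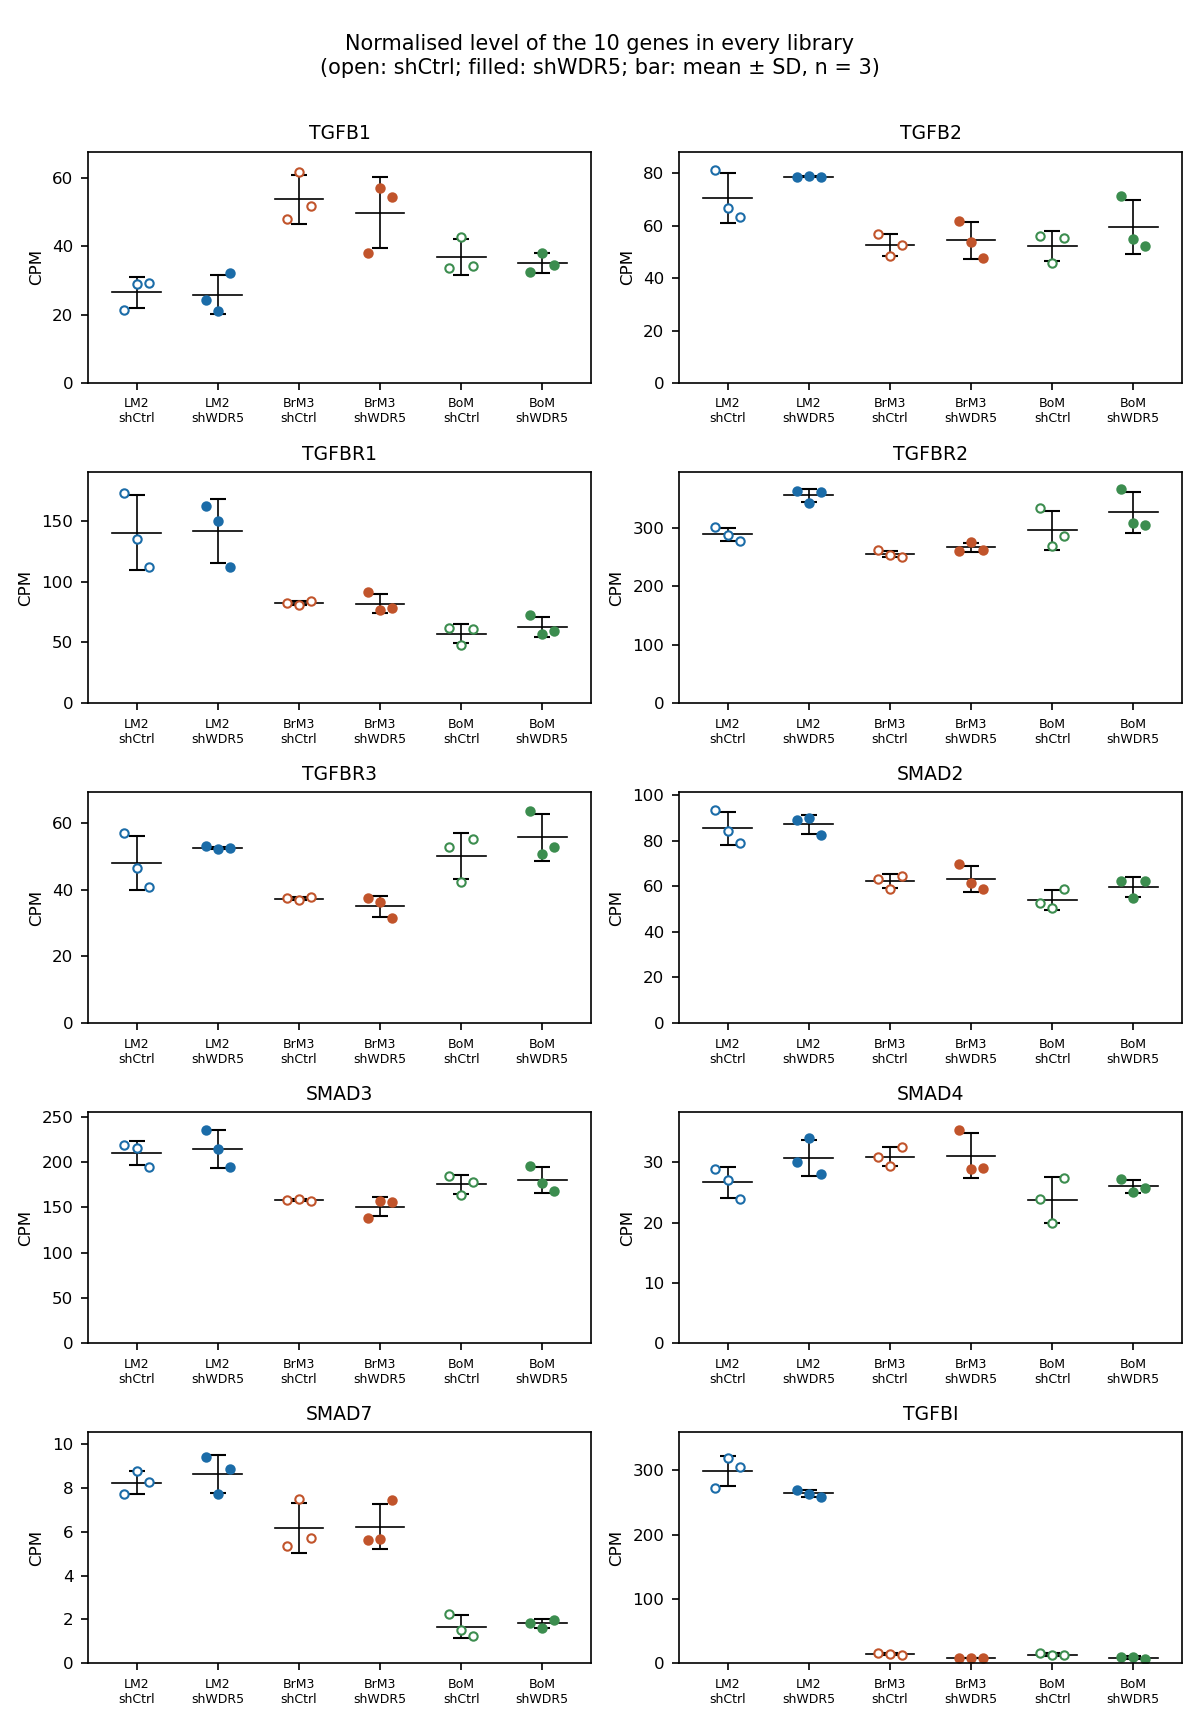
Normalised level (CPM, linear axis from 0) of each of the 10 genes in the 18 libraries, by line and hairpin. Points are libraries, open for shCtrl and filled for shWDR5, and bars are the mean ± SD of 3 libraries. TGFBI reaches 259 CPM or more only in LM2, SMAD7 is at 2.25 CPM or less in BoM, and TGFB1 is highest in BrM3, whereas open and filled points of a line mostly overlap.

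The first comparison asked how the pathway differed between the 3 lines without WDR5 knockdown. In shCtrl cells, 7 of the 10 genes differed between BrM3 and LM2 at an adjusted p under 0.05 in edgeR's quasi-likelihood test, 1 higher and 6 lower in BrM3, where 47.6% of all genes tested passed (24.2% higher and 23.4% lower). Between BoM and LM2 7 genes passed, 1 higher and 6 lower, where 51.8% of all genes passed (25.9% higher and 25.8% lower). Between BoM and BrM3 5 passed, 1 higher and 4 lower, where 37.7% did (17.9% higher and 19.8% lower). The count fell to 4 for BoM against LM2 without LM2 shCtrl replicate 1 or BoM shCtrl replicate 2, and to 3 for BoM against BrM3 without BoM shCtrl replicate 3. The library ranges of all 10 genes were apart between BrM3 and LM2 (58.9% of genes tested), those of 7 between BoM and LM2 (56.1%) and those of 7 between BoM and BrM3 (54.5%). The median log2 difference of the 10 genes was -0.41, -0.34 and -0.15 in the 3 comparisons, and that of all genes tested was 0.01, -0.01 and 0.00. BrM3 and BoM are both set against the same LM2 libraries, so their differences from LM2 are not independent.

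The ligand genes differed between the lines in opposite directions. TGFB1 (ENSG00000105329, hg38 chr19:41301587-41353922, minus strand) encodes the most widely expressed TGF-beta ligand. It lay at 21.3, 28.9 and 29.4 CPM in LM2 shCtrl, at 48.0, 61.8 and 51.7 CPM in BrM3 shCtrl and at 33.5, 42.9 and 34.3 CPM in BoM shCtrl. The 3 ranges do not overlap, with BrM3 highest and LM2 lowest. TGFB1 was 2.02-fold higher in BrM3 than in LM2 (log2 1.01 ± 0.18 SE, adjusted p = 0.00017) and 1.39-fold higher in BoM than in LM2 (log2 0.47 ± 0.18, adjusted p = 0.0352). It was lower in BoM than in BrM3 (log2 -0.54 ± 0.18, adjusted p = 0.0241). With a correction for GC content, this last difference shrank to -0.16 (adjusted p = 0.158), and it did not pass without BrM3 shCtrl replicate 2 (-0.43, adjusted p = 0.11), BoM shCtrl replicate 1 (-0.47, 0.0932) or BoM shCtrl replicate 3 (-0.49, 0.0853). The difference between BoM and LM2 did not pass without LM2 shCtrl replicate 1 (0.34, 0.139) or BoM shCtrl replicate 2 (0.35, 0.153).

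TGFB2 (ENSG00000092969, chr1:218345336-218444619, plus strand), the ligand that needs the co-receptor most for binding, was highest in LM2. It lay at 81.4, 66.8 and 63.5 CPM in LM2 shCtrl, 56.7, 48.3 and 52.6 CPM in BrM3 shCtrl and 56.0, 45.7 and 55.5 CPM in BoM shCtrl. Every LM2 value is above every value of the other lines, which overlap. Against LM2 the log2 difference was -0.42 ± 0.13 for BrM3 (adjusted p = 0.0133), -0.43 ± 0.13 for BoM (adjusted p = 0.0115), and between BoM and BrM3 it was 0.00 (95% interval -0.28 to 0.27). Neither difference from LM2 passed without LM2 shCtrl replicate 1 (-0.31 in both, adjusted p = 0.0728 and 0.0624), and they also missed without BrM3 shCtrl replicate 2 (-0.37, 0.0593) and BoM shCtrl replicate 2 (-0.34, 0.0617). Other annotated genes, TGFB2-AS1 on the opposite strand and TGFB2-OT1 on the same strand, cover 35.3% of the TGFB2 transcript. The libraries were stranded but the strand setting of the counting is not given in the sources used here, so part of these reads cannot be assigned with certainty.

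Among the receptors, the type I receptor TGFBR1 (ENSG00000106799, chr9:99104038-99154192, plus strand) differed in every pair of lines. It lay at 174, 136 and 112 CPM in LM2 shCtrl, 82.8, 81.0 and 84.3 CPM in BrM3 shCtrl and 61.8, 48.1 and 61.5 CPM in BoM shCtrl. The lines are ordered LM2, BrM3, BoM with no overlap, though LM2 is spread widely. The log2 difference was -0.76 ± 0.16 for BrM3 against LM2 (adjusted p = 0.000769), -1.30 ± 0.16 for BoM against LM2 (adjusted p = 3.53e-06) and -0.53 ± 0.16 for BoM against BrM3 (adjusted p = 0.0146). The last of these missed without BoM shCtrl replicate 2 (-0.42, adjusted p = 0.0681).

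The type II receptor TGFBR2 (ENSG00000163513, chr3:30606601-30694142, plus strand), which binds the ligand, did not pass in any pair of control lines. It lay at 301, 288 and 278 CPM in LM2 shCtrl, 262, 253 and 251 CPM in BrM3 shCtrl and 334, 269 and 286 CPM in BoM shCtrl. BrM3 was below both other lines without overlap. The log2 difference from LM2 was -0.18 in BrM3 (95% interval -0.37 to 0.01) and 0.04 in BoM (-0.15 to 0.22), and BoM exceeded BrM3 by 0.21 (0.03 to 0.40, adjusted p = 0.0666). TGFBR2 passed for BrM3 against LM2 without BoM shCtrl replicate 1 (adjusted p = 0.0463) and for BoM against BrM3 without BoM shCtrl replicate 2 (0.0319) or BoM shWDR5 replicate 1 (0.0363). With a replicate block, BoM against BrM3 passed too (0.21, adjusted p = 0.0423), as it did in DESeq2 (0.22, 0.0401). BrM3 against LM2 passed with the 2 groups fitted alone (-0.19, adjusted p = 0.0451). With the GC correction both differences of BrM3 passed (-0.24, adjusted p = 0.00898, and 0.19, adjusted p = 0.046), and the sign against LM2 turned for BoM (-0.06).

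The co-receptor TGFBR3 (betaglycan, ENSG00000069702, chr1:91680343-91906335, minus strand), which presents ligand to the type II receptor, was lowest in BrM3. It lay at 56.9, 46.4 and 40.7 CPM in LM2 shCtrl, 37.4, 36.7 and 37.6 CPM in BrM3 shCtrl and 52.7, 42.4 and 55.3 CPM in BoM shCtrl. LM2 and BoM overlapped, and both were above BrM3. The log2 difference was -0.36 ± 0.13 for BrM3 against LM2 (adjusted p = 0.0256) and 0.43 ± 0.13 for BoM against BrM3 (adjusted p = 0.014), and it was 0.06 for BoM against LM2 (95% interval -0.20 to 0.33). The difference between BrM3 and LM2 missed without LM2 shCtrl replicate 1 (-0.22, adjusted p = 0.15) and, near -0.36, without BrM3 shCtrl replicate 1, 2 or 3 (adjusted p = 0.0581, 0.0664 and 0.0571), and that between BoM and BrM3 missed without BoM shCtrl replicate 3 (0.35, adjusted p = 0.0708). Without any expression filter the difference between BrM3 and LM2 had an adjusted p of 0.0656.

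The SMAD genes differed by less than 2-fold between control lines except for the inhibitor SMAD7. SMAD2 (ENSG00000175387, chr18:47808957-47931146, minus strand) lay at 93.4, 84.1 and 78.8 CPM in LM2 shCtrl, 63.3, 58.7 and 64.7 CPM in BrM3 shCtrl and 52.6, 50.6 and 58.9 CPM in BoM shCtrl. LM2 was above the other lines. The log2 difference from it was -0.46 ± 0.09 (adjusted p = 0.000727) for BrM3 and -0.66 ± 0.09 (adjusted p = 1.79e-05) for BoM, while BoM and BrM3 overlapped (-0.21, 95% interval -0.40 to -0.01, adjusted p = 0.0978). With the GC correction SMAD2 passed for BoM against BrM3 (-0.25, adjusted p = 0.00144), also with the block added (-0.25, 0.00184). SMAD3 (ENSG00000166949, chr15:67063763-67195173, plus strand) lay at 219, 216 and 195 CPM in LM2 shCtrl, 159, 160 and 158 CPM in BrM3 shCtrl and 185, 164 and 178 CPM in BoM shCtrl. All 3 ranges are apart, and LM2 exceeded BrM3 (log2 -0.40 ± 0.09, adjusted p = 0.00138) and BoM (-0.26 ± 0.09, adjusted p = 0.0244), while BoM exceeded BrM3 by 0.15 (95% interval -0.04 to 0.34). The SMAD3 difference between BoM and LM2 missed without LM2 shCtrl replicate 1 (-0.22, adjusted p = 0.0721), LM2 shCtrl replicate 2 (-0.23, 0.0756) or BoM shCtrl replicate 2 (-0.21, 0.0998), and without any expression filter (-0.26, 0.135).

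SMAD4 (ENSG00000141646, chr18:51028528-51085045, plus strand), the partner common to all receptor-activated SMADs, varied least of the 10 genes. It lay at 28.9, 27.1 and 24.0 CPM in LM2 shCtrl, 31.0, 29.4 and 32.5 CPM in BrM3 shCtrl and 24.0, 19.9 and 27.4 CPM in BoM shCtrl. It passed in BoM against BrM3 alone (log2 -0.38 ± 0.12, adjusted p = 0.0195), and there it missed without BrM3 shCtrl replicate 3 (-0.35, 0.069) or BoM shCtrl replicate 2 (-0.27, 0.0975). A neighbouring gene on the same strand covers 9.3% of the SMAD4 transcript. With the GC correction SMAD4 also passed in the other pairs, higher in BrM3 (0.18, adjusted p = 0.0481) and lower in BoM (-0.24, adjusted p = 0.0123) than in LM2.

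SMAD7 (ENSG00000101665, chr18:48919853-48950965, minus strand), which blocks the type I receptor and is itself induced by the pathway, was lowest in BoM. It lay at 7.71, 8.74 and 8.25 CPM in LM2 shCtrl, 5.37, 7.50 and 5.69 CPM in BrM3 shCtrl and 2.25, 1.53 and 1.25 CPM in BoM shCtrl. The highest BoM library was below the lowest library of either other line. SMAD7 was 4.80-fold lower in BoM than in LM2 (log2 -2.26 ± 0.20, adjusted p = 4.57e-08) and 3.59-fold lower than in BrM3 (log2 -1.84 ± 0.20, adjusted p = 1.39e-06). The BoM values rest on 25 to 89 counts a library, against 205 to 1017 in LM2 shCtrl. Between BrM3 and LM2 the log2 difference was -0.42 (95% interval -0.78 to -0.05, adjusted p = 0.058), and it passed without BrM3 shCtrl replicate 2 (-0.58, 0.022), BoM shCtrl replicate 1 (-0.44, 0.0276) or BoM shCtrl replicate 3 (-0.42, 0.0459), and in DESeq2 (-0.42, 0.0406). It also passed with the 2 groups alone (-0.43, adjusted p = 0.0416), the GC correction (-0.43, 0.0229) and the GC correction with a replicate block (-0.43, 0.0167).

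TGFBI (ENSG00000120708, chr5:136028988-136063818, plus strand), which encodes a secreted matrix protein named for its induction by TGF-beta, showed the widest difference of the 10 genes. It lay at 273, 319 and 306 CPM in LM2 shCtrl, at 15.4, 14.9 and 13.5 CPM in BrM3 shCtrl and at 15.6, 13.0 and 12.4 CPM in BoM shCtrl. BrM3 and BoM overlapped, and the lowest LM2 library was far above both. TGFBI was 20.4-fold lower in BrM3 than in LM2 (log2 -4.35 ± 0.16, adjusted p = 7.26e-13) and 21.8-fold lower in BoM than in LM2 (log2 -4.45 ± 0.16, adjusted p = 1.54e-12). Between BoM and BrM3 the log2 difference was -0.09 (95% interval -0.40 to 0.21). The SD of the log2 means of the 6 groups was 2.44 for TGFBI, 1.07 for SMAD7 and 0.56 for TGFBR1, and lay between 0.17 and 0.44 for the other 7 genes.

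**Figure D2:**
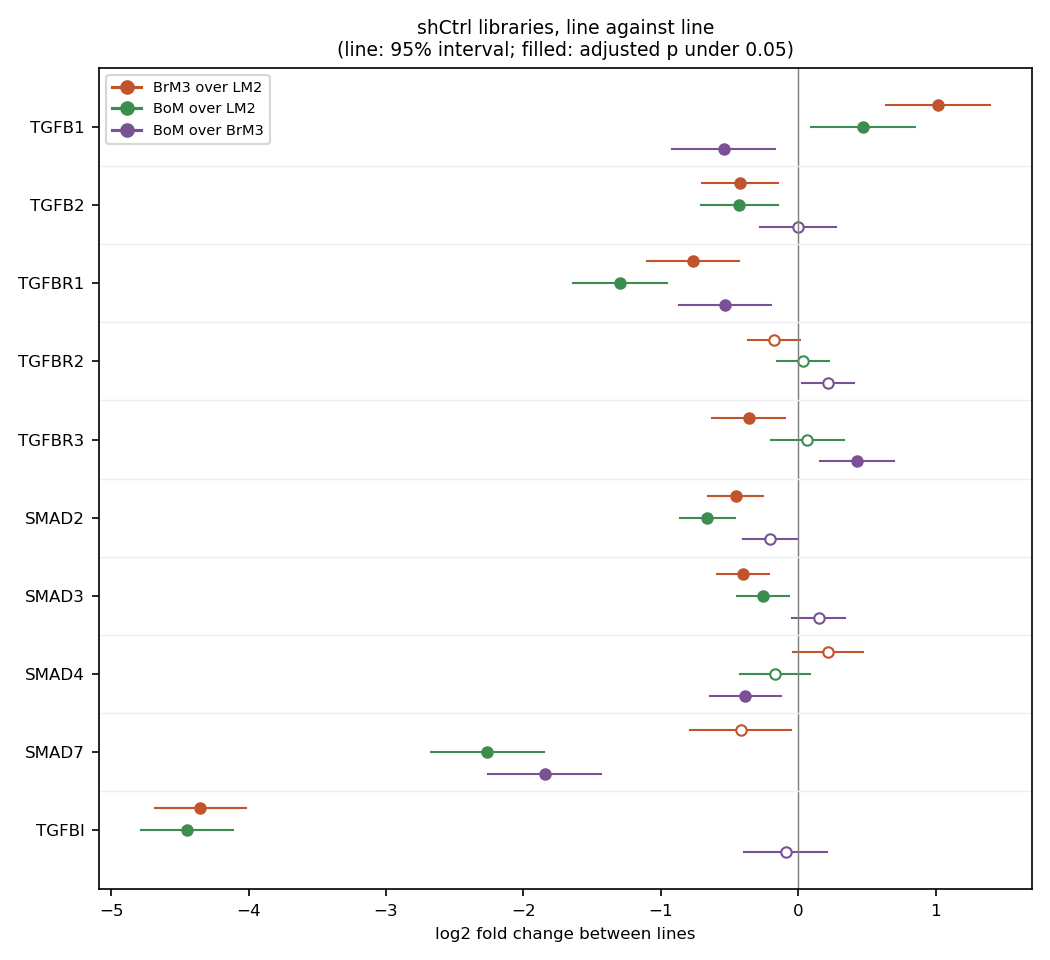
Log2 fold change between the shCtrl libraries of the 3 lines for each of the 10 genes. Points are estimates of the edgeR fit, horizontal lines are 95% intervals, and filled points have an adjusted p under 0.05. TGFBI lies at -4.35 and -4.45 against LM2, SMAD7 at -2.26 and -1.84 in the comparisons of BoM, and TGFB1 has a filled point above 0 in both comparisons with LM2.

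The sequence before the start of 3 of these genes is shown because TGFBI and SMAD7, both targets of the pathway, and the ligand TGFB1 had the distinct patterns above. Each is the 250 bases upstream of the start site in the RefSeq table of GRCh38.p14, taken from the entry whose start coincides with the annotated start of the gene, and is written 5′ to 3′ on the strand of the gene. The window of TGFBI is chr5:136028738-136028987, that of SMAD7 is chr18:48950966-48951215 and that of TGFB1 is chr19:41353923-41354172. Capitals mark CAGAC, the SMAD box, and GGGCGG, the GC box, each searched on both strands (as GTCTG and as CCGCCC on the other). The AP-1 motif TGAGTCA, or TGACTCA on the other strand, was searched too and is in none of the 3 windows.
TGFBI: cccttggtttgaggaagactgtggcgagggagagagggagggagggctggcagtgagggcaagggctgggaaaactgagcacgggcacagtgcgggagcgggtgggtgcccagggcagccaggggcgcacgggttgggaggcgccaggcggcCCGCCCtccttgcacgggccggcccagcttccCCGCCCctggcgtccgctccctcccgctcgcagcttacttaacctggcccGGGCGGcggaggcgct
SMAD7: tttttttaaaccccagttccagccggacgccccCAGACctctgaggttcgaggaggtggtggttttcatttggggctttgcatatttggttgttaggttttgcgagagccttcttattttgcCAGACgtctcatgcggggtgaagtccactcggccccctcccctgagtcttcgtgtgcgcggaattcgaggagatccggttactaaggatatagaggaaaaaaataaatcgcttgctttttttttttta
TGFB1: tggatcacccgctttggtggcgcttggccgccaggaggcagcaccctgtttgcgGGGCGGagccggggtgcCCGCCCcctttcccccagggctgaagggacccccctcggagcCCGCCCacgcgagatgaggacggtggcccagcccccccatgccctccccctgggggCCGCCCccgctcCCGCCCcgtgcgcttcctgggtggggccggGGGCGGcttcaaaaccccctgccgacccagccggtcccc
The SMAD7 window holds the SMAD box at 2 places and no GC box. SMAD7 has 3 entries in the RefSeq table, and its boxes were counted only in the window shown. TGFBI and TGFB1 have 1 entry each. The TGFBI and TGFB1 windows hold no SMAD box and hold 3 and 6 GC boxes. Among all 35116 windows of this length in the table, 38.0% hold a SMAD box, 42.6% a GC box and 4.20% the AP-1 motif, so the SMAD box and the GC box are common. They are matches of letters in a short window and say nothing of binding in these cells.

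The second comparison asked what changed in these genes after 3 days of WDR5 knockdown. TGFBI fell in BrM3 and in BoM, TGFBR2 rose on average over the 3 lines, and no other member passed in any line. In LM2 0 of the 10 genes had an adjusted p under 0.05 in edgeR, where 6.25% of all genes tested did (1.48% higher and 4.78% lower), and 1 gene, TGFBR2, had an unadjusted p under 0.05, where 20.1% of all genes did. DESeq2 called 1 gene there, again TGFBR2. In BrM3 1 of 10 passed, where 10.8% of all genes did (2.89% higher and 7.91% lower), and in BoM 1 of 10 passed, where 16.1% did (5.41% higher and 10.7% lower). In the average over the lines 2 of 10 passed, 1 in each direction, where 35.5% of all genes did (15.6% higher and 19.9% lower). The library ranges of shWDR5 and shCtrl were apart for 2 of the 10 in LM2 (TGFBR2 and TGFBI, 25.3% of all genes), for 2 in BrM3 (SMAD3 and TGFBI, 35.5%) and for 1 in BoM (TGFBI, 30.2%). With the GC correction the average called 4 genes, 3 higher (TGFB2, TGFBR2 and SMAD4) and 1 lower.

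**Figure D3:**
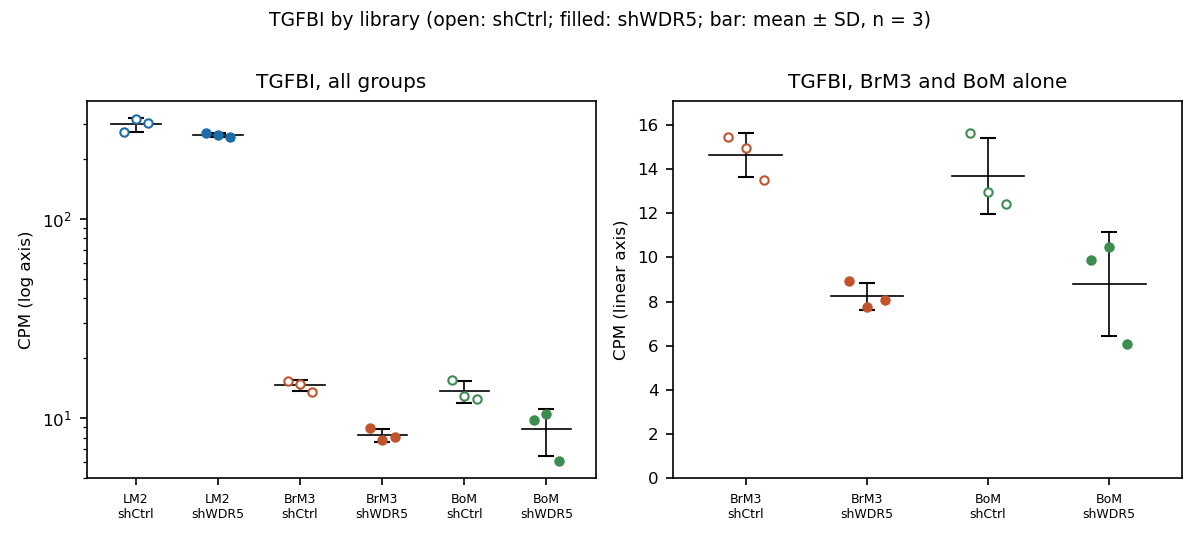
TGFBI level (CPM) in every library, for all groups on a log axis at left and for BrM3 and BoM alone on a linear axis from 0 at right. Points are libraries, open for shCtrl and filled for shWDR5, and bars are the mean ± SD of 3 libraries. In BrM3 and BoM every filled point is below every open point of the line, while all LM2 points are at 259 CPM or more.

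In BrM3, TGFBI lay at 15.4, 14.9 and 13.5 CPM with shCtrl and at 8.92, 7.74 and 8.06 CPM with shWDR5. In BoM, the shCtrl values were 15.6, 13.0 and 12.4 CPM and the shWDR5 values 9.86, 10.5 and 6.09 CPM. All 3 shWDR5 libraries lay below all 3 shCtrl libraries in both lines. TGFBI fell by 1.78-fold in BrM3 cells (log2 -0.84 ± 0.15, adjusted p = 0.00183). For BoM cells the fall was 1.55-fold (log2 -0.64 ± 0.15, adjusted p = 0.00796). In LM2, TGFBI went from 273, 319 and 306 CPM to 270.0, 263 and 259 CPM, and although these ranges are also apart, the log2 difference of -0.18 (95% interval -0.47 to 0.11) did not pass (adjusted p = 0.518). Averaged over the 3 lines the log2 change was -0.55 ± 0.08 (adjusted p = 8.2e-05). The call in BoM was lost without BoM shCtrl replicate 1 (-0.52, adjusted p = 0.0514) and when BoM was fitted alone (-0.63, adjusted p = 0.0923). The summed markers of other cells were also lower with shWDR5 in BrM3 and BoM, without overlap, and their part in this fall was not tested.

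TGFBR2 was higher with shWDR5 in every line by its mean. It went from 301, 288 and 278 CPM to 363, 343 and 363 CPM in LM2. The BrM3 values were 262, 253 and 251 CPM with shCtrl and 261, 277 and 263 CPM with shWDR5, and those of BoM were 334, 269 and 286 CPM and 367, 309 and 305 CPM. The groups were apart in LM2 and overlapped in BrM3 and BoM. The log2 difference was 0.30 ± 0.09 in LM2, just outside the threshold (adjusted p = 0.0536), 0.06 in BrM3 (95% interval -0.13 to 0.25) and 0.14 in BoM (-0.05 to 0.33). The average over the lines passed at 0.17 ± 0.05, or 1.12-fold (adjusted p = 0.0167). DESeq2 put the LM2 value past the threshold (0.32, adjusted p = 0.00936), and so did the fit with filterByExpr (0.33, 0.0415), the GC correction (0.34, 0.00488), the replicate block (0.30, 0.0173), the GC correction with the block (0.34, 0.000874) and leaving out any of 5 libraries of the other lines (BrM3 shWDR5 replicate 1, BoM shCtrl replicates 1 and 2, BoM shWDR5 replicates 1 and 3; adjusted p = 0.0247 to 0.0459).

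**Figure D4:**
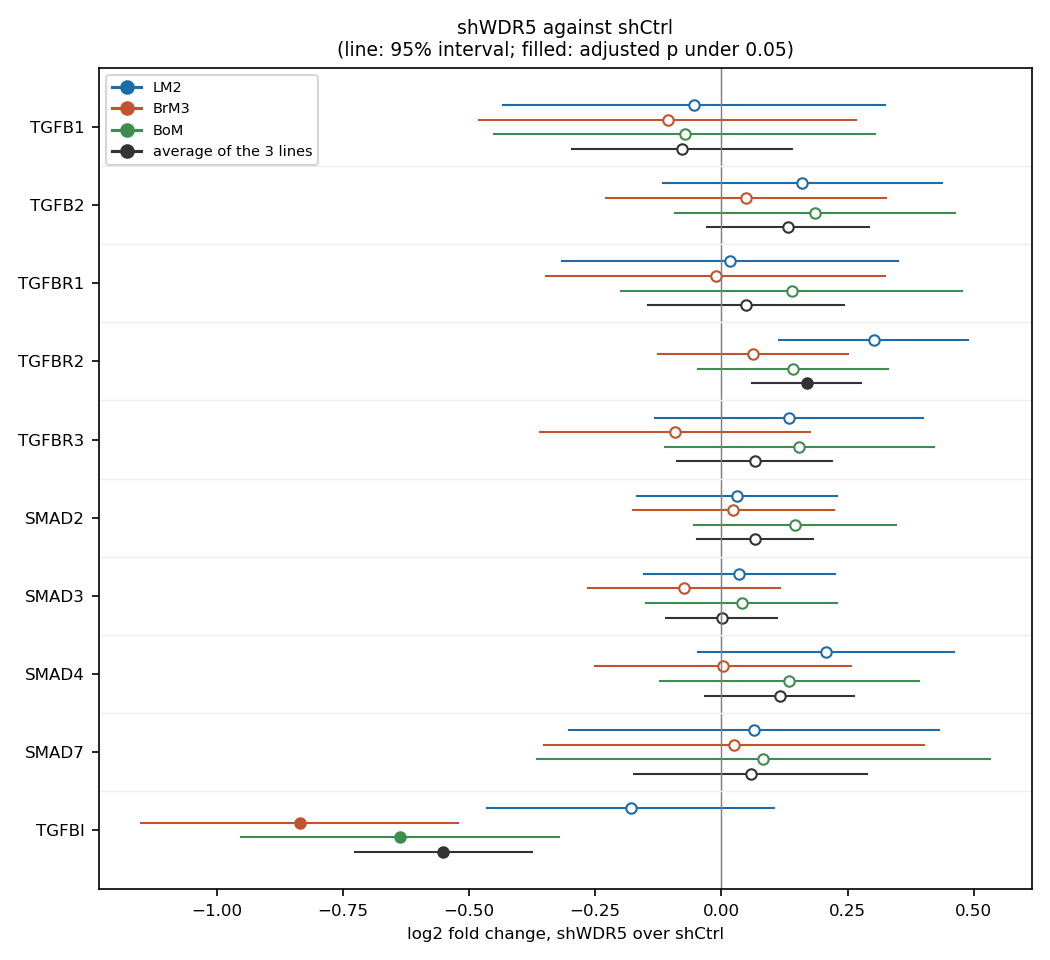
Log2 fold change of shWDR5 over shCtrl for the 10 genes in LM2, BrM3, BoM and the average of the 3 lines. Points are estimates of the edgeR fit, horizontal lines are 95% intervals, and filled points have an adjusted p under 0.05. The filled points are TGFBI in BrM3, BoM and the average, and TGFBR2 in the average.

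The ligand genes did not pass in any line. TGFB1 had log2 differences of -0.05 in LM2 (95% interval -0.43 to 0.33), -0.11 in BrM3 (-0.48 to 0.27) and -0.07 in BoM (-0.45 to 0.31), and -0.08 on average (-0.29 to 0.14). These signs turned with the GC correction, to 0.04, 0.10, 0.19 and 0.11, where no value passed either; the TGFB1 transcript has the highest GC content of the 10, at 63.6%. TGFB2 had log2 differences of 0.16, 0.05 and 0.19, and 0.13 on average (-0.03 to 0.29, adjusted p = 0.189).

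The differences of the other receptors and the SMADs were small. TGFBR1 averaged 0.05 (-0.14 to 0.24) and TGFBR3 0.07 (-0.09 to 0.22) over the lines. SMAD2 averaged 0.07 (-0.05 to 0.18), SMAD3 0.00 (-0.11 to 0.11), SMAD4 0.12 (-0.03 to 0.26) and SMAD7 0.06 (-0.17 to 0.29), all on the log2 scale with 95% intervals. Within single lines the 9 genes other than TGFBI had log2 differences between -0.05 and 0.30 (LM2), between -0.11 and 0.06 (BrM3) and between -0.07 and 0.19 (BoM). SMAD3 in BrM3 lay at 159, 160 and 158 CPM with shCtrl and 138, 157 and 156 CPM with shWDR5, which is apart by a narrow margin (log2 -0.07, 95% interval -0.26 to 0.12). For SMAD7, whose counts in BoM are low, the interval in that line reached from -0.36 to 0.53.

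The response of TGFBI was then compared between lines directly. None of the 10 genes passed for BrM3 against LM2 or for BoM against BrM3 (0.00826% of all genes in each), nor for BoM against LM2 (0% of all genes) in edgeR, and DESeq2 also called 0 members. The fall of TGFBI was larger by 0.66 on the log2 scale in BrM3 than in LM2 (95% interval -1.08 to -0.23) and by 0.46 in BoM than in LM2 (-0.88 to -0.03), each with an unadjusted p under 0.05 but an adjusted p of 0.851 and 0.909. At an unadjusted p under 0.05, TGFBI was the 1 member in both of these comparisons, where 2.94% and 5.18% of all genes were, and 0 members were for BoM against BrM3. A different response of TGFBI in the lines is thus not shown by the adjusted test.

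Other genes of the pathway were counted in 4 lists with 81 genes in all, of which 66 were tested. They were the other ligands with their latency and activation factors (13 of 18 tested), the other receptors and co-receptors (11 of 14), further SMADs and regulators (20 of 22) and known induced targets (22 of 27). The 4 lists were drawn up with earlier results of these data known, so their shares beside those of all genes are descriptions only. In the average knockdown response 25 of the 66 passed (37.9%, against 35.5% of all genes), 13 higher and 12 lower. In single lines 2 passed in LM2 (3.03%, against 6.25% of all genes), 9 in BrM3 (13.6%, against 10.8%) and 16 in BoM (24.2%, against 16.1%), the last 8 in each direction. With a replicate block 6, 20 and 24 passed. Between control lines 46 passed for BrM3 against LM2 (69.7%, against 47.6%), 48 for BoM against LM2 (72.7%, against 51.8%) and 35 for BoM against BrM3 (53.0%, against 37.7%).

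**Figure D5:**
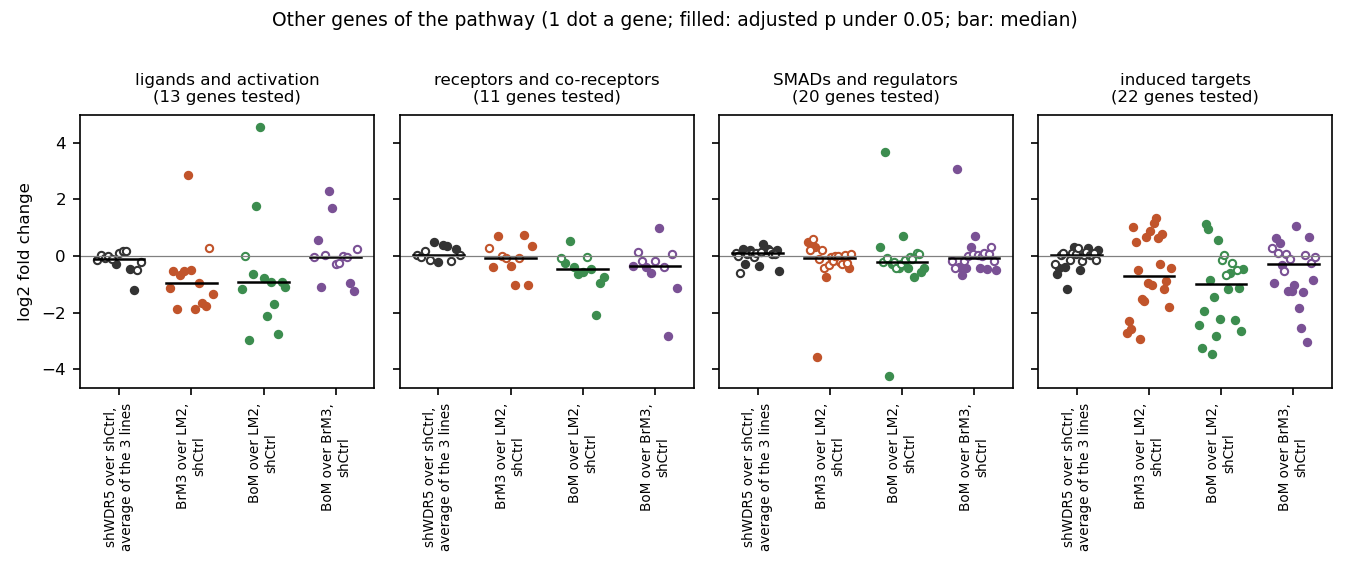
Log2 fold changes of the 66 other pathway genes tested, in 4 lists, for the knockdown averaged over the lines and for the 3 pairs of control lines. Each dot is a gene, filled at an adjusted p under 0.05, and the bar is the median of the list. The knockdown dots lie between -1.19 and 0.48, while those of the line comparisons reach -4.23 and 4.55.

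Of the ligands and activation factors, 11 of 13 were lower and 1 higher in BrM3 than in LM2, and 10 were lower and 2 higher in BoM than in LM2 (92.3% called in each, against 47.6% and 51.8% of all genes), with medians of -0.94 and -0.93. FURIN, a protease that cleaves the ligand precursor (-1.87 ± 0.21 in BrM3 and -2.96 ± 0.22 in BoM), and LTBP3, which holds the latent ligand (-2.74 ± 0.25 in BoM), were among those lower. The integrin subunit ITGB8, which takes part in ligand activation, was -1.87 ± 0.21 in BrM3. INHBB, a subunit of activin B, went the other way, with 1.47, 1.79 and 1.35 CPM in LM2 shCtrl, 11.2, 11.9 and 10.4 CPM in BrM3 shCtrl and 32.1, 44.3 and 31.6 CPM in BoM shCtrl. Its log2 difference from LM2 was 2.86 ± 0.15 for BrM3 (adjusted p = 1.05e-10) and 4.55 ± 0.16 for BoM (adjusted p = 1.54e-12). After knockdown 0 of 13 rose and 3 fell on average (23.1% called, against 35.5% of all genes): LTBP3 (-1.19 ± 0.15, adjusted p = 1.42e-05), LTBP2 (-0.48 ± 0.11) and INHBB (-0.29 ± 0.09), where the GC correction gave 1 higher and 3 lower and left INHBB at -0.17 (adjusted p = 0.0784). Without LM2 shCtrl replicate 1, 5 fell.

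LTBP3 fell by more than 2-fold in BrM3 and BoM. It lay at 5.19, 5.93 and 4.79 CPM in BrM3 shCtrl and 1.82, 2.32 and 2.25 CPM in BrM3 shWDR5 (log2 -1.30 ± 0.26, adjusted p = 0.00367), and at 2.47, 3.30 and 2.26 CPM in BoM shCtrl and 1.04, 0.81 and 0.57 CPM in BoM shWDR5 (log2 -1.71 ± 0.30, adjusted p = 0.00102). In LM2 the values were 10.5, 21.3 and 22.2 CPM against 10.7, 11.6 and 14.5 CPM, which overlap (-0.57 ± 0.23, adjusted p = 0.153). The LM2 difference passed without LM2 shCtrl replicate 1 (-0.83, 0.00889), without an expression filter (-0.56, 0.046) and with the GC correction and block (-0.40, 0.0168). The LTBP3 values with shWDR5 rest on 32 to 117 counts a library in BrM3 and 15 to 39 in BoM. The part of the markers of other cells, which were lower with shWDR5 in BrM3 and BoM, was not tested.

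Of the other receptors and co-receptors, 4 of 11 rose and 1 fell on average after knockdown (45.5% called, against 35.5% of all genes, 15.6% higher and 19.9% lower). BAMBI, a decoy receptor that lacks a kinase domain, passed in each line, though near the threshold in LM2 and BrM3. It went from 11.1, 9.44 and 8.94 CPM to 13.5, 12.8 and 13.7 CPM in LM2 (log2 0.45 ± 0.13, adjusted p = 0.0449). In BrM3 it lay at 8.54, 10.0 and 9.66 CPM with shCtrl and 11.9, 12.7 and 13.1 CPM with shWDR5 (0.42 ± 0.13, 0.0451), and in BoM at 7.54, 5.78 and 5.26 CPM and 9.81, 8.33 and 9.69 CPM (0.57 ± 0.13, 0.00754). The groups of BAMBI were apart in all 3 lines. The call was lost without an expression filter in LM2 (0.47, adjusted p = 0.134) and BrM3 (0.47, 0.101), and with the 2 groups alone in LM2 (0.46, 0.0794) and BoM (0.58, 0.0796). In LM2 it was also lost without LM2 shCtrl replicate 2 or 3, any LM2 shWDR5 library, any BrM3 shCtrl library or BrM3 shWDR5 replicate 2 or 3 (0.38 to 0.48, adjusted p = 0.0547 to 0.183). In BrM3 it was lost without any BrM3 shCtrl library, BrM3 shWDR5 replicate 2 or 3, LM2 shCtrl replicate 2 or LM2 shWDR5 replicate 1 or 2 (0.35 to 0.47, adjusted p = 0.0589 to 0.176). The average rise of BAMBI (0.48 ± 0.08, adjusted p = 0.000108) passed under every alternative run. The bone morphogenetic protein receptors BMPR2 (0.34 ± 0.09) and BMPR1B (0.37 ± 0.12) and the co-receptor NRP1 (0.25 ± 0.06) also rose on average. Between control lines 3 were higher and 4 lower in BrM3 than in LM2, 1 higher and 8 lower in BoM than in LM2, and 1 higher and 5 lower in BoM than in BrM3 (63.6%, 81.8% and 54.5% called, against 47.6%, 51.8% and 37.7% of all genes). Endoglin (ENG), a co-receptor, was lowest in BoM, at 12.5, 13.7 and 10.5 CPM against 39.2, 59.5 and 57.8 CPM in LM2 and 82.1, 94.5 and 85.6 CPM in BrM3.

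Of the further SMADs and regulators, 6 of 20 rose and 3 fell on average after knockdown (45% called, against 35.5% of all genes), or 10 and 2 with the GC correction. The ubiquitin ligases SMURF2 (0.43 ± 0.07, adjusted p = 0.000259) and NEDD4L (0.25 ± 0.04), which act on SMADs and receptors, and STRAP (0.22 ± 0.05) rose, and ZFYVE9, the anchor that brings SMAD2 to the receptor, fell (-0.53 ± 0.08, adjusted p = 7.4e-05). In the control lines 2 were higher and 3 lower in BrM3 than in LM2 (2 and 7 with the GC correction), 3 higher and 7 lower in BoM than in LM2, and 3 higher and 6 lower in BoM than in BrM3. These are 25%, 50% and 45% called, against 47.6%, 51.8% and 37.7% of all genes. PMEPA1, an inhibitor that the pathway induces, went with TGFBI, at 124, 155 and 148 CPM in LM2 shCtrl, 12.2, 12.5 and 11.4 CPM in BrM3 shCtrl and 6.76, 8.30 and 7.62 CPM in BoM shCtrl. Its log2 difference from LM2 was -3.56 ± 0.12 for BrM3 (adjusted p = 3.14e-13) and -4.23 ± 0.12 for BoM (adjusted p = 2.29e-13). LDLRAD4, another inhibitor of SMAD activation, stood at 3.56, 3.51 and 2.86 CPM in BoM shCtrl and at 0.57 CPM or less in the shCtrl libraries of the other lines.

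Of the induced targets, 8 were higher and 14 lower in BrM3 than in LM2, 3 higher and 14 lower in BoM than in LM2, and 4 higher and 10 lower in BoM than in BrM3 (100%, 77.3% and 63.6% called, against 47.6%, 51.8% and 37.7%). Fibronectin (FN1) was 963, 1201 and 999 CPM in LM2 shCtrl, 358, 348 and 344 CPM in BrM3 shCtrl and 173, 136 and 134 CPM in BoM shCtrl. FN1 was ordered LM2, BrM3, BoM without overlap. BHLHE40 (-2.59 ± 0.15), ADAM12 (-2.71 ± 0.21) and COL4A1 (-1.53 ± 0.12) were lower in BrM3 than in LM2, TNC was lower in BoM than in LM2 (-2.66 ± 0.18), and LOX (-2.53 ± 0.15) and TAGLN (-3.03 ± 0.19) were lower in BoM than in BrM3.

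After knockdown 3 of the 22 induced targets rose and 5 fell on average (36.4% called, against 35.5% of all genes), or 6 and 5 with the GC correction. The collagen gene COL1A1 fell most (-1.15 ± 0.17, adjusted p = 7.95e-05), with 7.22, 9.52 and 8.70 CPM in BrM3 shCtrl, 2.90, 4.50 and 4.49 CPM in BrM3 shWDR5, 4.84, 7.70 and 4.96 CPM in BoM shCtrl and 1.76, 2.24 and 1.99 CPM in BoM shWDR5. The hairpins did not overlap in either line. In LM2 it went from 35.04, 71.0 and 86.7 CPM to 30.2, 29.8 and 49.2 CPM, which overlap (-0.83 ± 0.27, adjusted p = 0.0808). The BrM3 difference (-1.06 ± 0.30, adjusted p = 0.0305) was lost without BrM3 shCtrl replicate 2 or 3 or any BrM3 shWDR5 library (-1.16 to -0.91, adjusted p = 0.0661 to 0.0982), and that of LM2 passed without LM2 shCtrl replicate 1 (-1.13, 0.00622) or LM2 shWDR5 replicate 3 (-1.10, 0.0324), and with DESeq2, no filter, the block and the GC correction with and without the block (adjusted p = 7.51e-06 to 0.0444). The part of the markers of other cells was not tested. The cytokine IL11 (-0.51 ± 0.08) and the cell cycle inhibitor CDKN1A (-0.38 ± 0.07) fell on average, and the tropomyosin TPM1 (0.23 ± 0.05) rose.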

How the data were processed

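RNA was sequenced from 18 libraries of 3 MDA-MB-231 derivatives with shCtrl or shWDR5. The authors aligned paired reads of stranded poly(A) libraries to hg38 with STAR 2.7.0 and deposited raw counts per gene, which were used as they are. Columns were matched to samples by the line, hairpin and number in their names; the control columns carry a code other than the label and were assigned to shCtrl as the one hairpin left. A second deposited table holds the authors' own DESeq2 comparisons and was not used. Spike-in RNA was added according to the methods, but 0 spike-in rows are in the counts.

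Genes were kept where the highest normalised count passed 143.7, the threshold that gave the highest similarity of detected genes between replicates (Jaccard index 0.97). The 12103 genes kept were scaled by the trimmed mean of M-values (TMM) and fitted in 1 model over all 6 groups with edgeR 4.0.16 (quasi-likelihood test, 12 residual degrees of freedom). Adjusted p-values are Benjamini-Hochberg values over all genes tested, called under 0.05, and CPM use the TMM library sizes. Replicate numbers were taken to pair samples where all 3 same-numbered pairs correlated over 0.1 in their deviations from the group means. This held for the hairpins in BoM (0.563, 0.321 and 0.144) and for BoM against BrM3 (0.28, 0.6 and 0.274). The main fit has no replicate block for these comparisons either, so their main values ignore this pairing. The alternatives were DESeq2 1.42.0, filterByExpr, no filter, each comparison fitted with its own groups alone, a GC correction, a replicate block, and leaving out each library. Transcript lengths and positions are from GENCODE 44, which may not be the authors' annotation.

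Named in the text are the 10 genes, WDR5, and from each of the 4 lists up to 4 genes with the smallest p in the average response and up to 3 in each control comparison, and for the 3 genes whose group means varied most the 3 genes of most similar pattern. One gene that this rule names is not reported here. The genes, lists and rules were chosen with earlier results of these data known.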

Additional observations from a re-analysis of the deposited data

How the results depend on the processing

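Of 498 values of the 10 genes under alternatives other than leaving out a library, 445 kept their direction and side of the threshold, 5 no longer passed, 29 newly passed and 19 turned sign. No value that turned sign passed in either fit, and the causes of these changes were not tested. In LM2, where no member passed, DESeq2, filterByExpr and the replicate block each called 1 (TGFBR2), the GC correction 2 (with SMAD4) and the GC correction with the block 3 (with TGFB2). In BoM, where 1 passed, the 2 groups fitted alone called 0 and the GC correction with the block 2. On average over the lines, where 2 passed, the GC correction called 4 with and without the block. Same-numbered shCtrl and shWDR5 libraries deviated together more than others (mean correlation 0.36 against -0.194). Because deviations were taken from the group means, the second mean largely follows from the first and is not separate evidence of pairing. By the rule that each pair exceed 0.1 the replicate numbers paired the hairpins in BoM, not in LM2 (0.576, 0.0246 and 0.729) or BrM3 (0.546, 0.514 and -0.174), and paired the control lines BoM and BrM3, not the others (lowest -0.133 and -0.382). Beyond TGFBR2 in LM2 (adjusted p = 0.0173), the block newly passed TGFBR2 for BoM against BrM3 (0.21, adjusted p = 0.0423) and changed no other member's call.

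Signs turned with the GC correction for the response of TGFB1, to 0.0372 in LM2, 0.1014 in BrM3, 0.1855 in BoM and 0.108 on average (0.0308, 0.1013, 0.1881 and 0.1067 with the block), and for TGFBR2 in BoM against LM2 (-0.0566, and -0.06 with the block). The response of TGFBR1 in BrM3 (-0.0113) turned to 7e-04 in DESeq2, 0.0365 with filterByExpr, 0.0326 without a filter, 0.0081 in the groups alone, 0.0196 with the GC correction and 0.0192 with GC and block. With the block SMAD4 in BrM3 became -6e-04 and SMAD3 on average -0.0017, and DESeq2 gave 2e-04 for TGFB2 in BoM against BrM3.

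Leaving out 1 library moved the members called to between 0 and 1 in LM2, 0 and 1 in BoM, 5 and 9 for BrM3 against LM2, 4 and 7 for BoM against LM2 and 3 and 6 for BoM against BrM3. Small responses then spanned 0. In LM2 the ranges were -0.2362 to 0.0796 for TGFB1, -0.1217 to 0.1979 for TGFBR1, -0.0243 to 0.0988 for SMAD2, -0.0366 to 0.1026 for SMAD3 and -0.0025 to 0.1475 for SMAD7. In BrM3 they were -0.2157 to 0.0525 for TGFB1, -0.0493 to 0.137 for TGFB2, -0.0933 to 0.0343 for TGFBR1, -0.0497 to 0.0738 for SMAD2, -0.0955 to 0.0543 for SMAD4 and -0.1311 to 0.1853 for SMAD7. In BoM they were -0.1359 to 0.0508 for TGFB1, -0.0242 to 0.088 for SMAD3 and -0.0558 to 0.3619 for SMAD7. SMAD3 on average ran from -0.0235 to 0.023, TGFBR2 and TGFBR3 in BoM against LM2 from -0.0726 to 0.1012 and from -0.043 to 0.2019, and TGFB2 in BoM against BrM3 from -0.0612 to 0.0855.

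Counts of the other lists moved by over 1.5 times for ligands on average (3 called, but 5 with the block, 7 with GC and block and 5 without LM2 shCtrl replicate 1), for SMADs and regulators in BrM3 against LM2 (5, but 9 with GC and 11 with GC and block) and for induced targets on average (8, but 13 with GC and block). Of 411 values of the other named pathway genes under alternatives other than leaving out a library, 394 kept their direction and side of the threshold, 6 no longer passed, 11 newly passed and 0 turned sign. With the block the 66 other pathway genes had 6 calls in LM2 (2 without it), 20 in BrM3 (9) and 24 in BoM (16). Among the member genes outside these lists, depth limits SMAD7 in BoM most, where a library held 25 to 89 counts. Genes of the lists were lower still. LTBP3 held 15 to 39 counts a library in BoM shWDR5, and LDLRAD4 lay at 0.075 to 0.42 CPM in LM2 shCtrl.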

Other observations

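TGFBI, SMAD7 and TGFBR1 had the widest spread of group means among the 10 genes, and other genes followed each of them over the 18 libraries on the scale of log2 CPM. The 6 libraries of a line share that line and are not independent points, and the correlations are given as descriptions. TGFBI went most closely with CRTC3 (r = 0.996), KRT7 (r = 0.995), a simple-epithelial keratin, and LAMB1 (r = 0.99), a laminin chain of the basement membrane. KRT7 averaged 120 CPM in LM2 shCtrl, 12.6 CPM in BrM3 shCtrl and 14.0 CPM in BoM shCtrl, and with shWDR5 it averaged 125, 7.49 and 9.16 CPM. SMAD7 went with CYFIP1 (r = 0.981), STC1 (r = 0.97) and SPARC (r = 0.967), a matrix-binding glycoprotein whose mean was 370.3 CPM in LM2 shCtrl, 118 CPM in BrM3 shCtrl and 3.02 CPM in BoM shCtrl. TGFBR1 went with LPGAT1 (r = 0.98), CDK5RAP2 (r = 0.971) and FBXW2 (r = 0.971), all ordered LM2, BrM3, BoM in the mean of shCtrl.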
